A study of Mus musculus with 13 samples.

Results

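The orphan and purinergic receptor genes described here are the protein-coding mouse genes whose symbols begin with Gpr, P2ry or P2rx followed by a digit. A gene was kept where a region of H3K27ac overlapped its body, or lay within 100 kb and had it as the nearest protein-coding gene. Of 91 such genes in the annotation, 59 had a region, out of 14980 genes with one in all, and they held 145 of the 40691 regions. H3K27ac, acetylation of histone H3 at lysine 27, marks active promoters and enhancers. A gene's value is the deposited signal summed over its regions, which measures acetylation and not messenger RNA.

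P2X receptors are cation channels opened by extracellular ATP. P2Y receptors are G protein-coupled receptors for ATP, ADP, UTP, UDP and UDP-glucose, nucleotides that damaged or activated cells release. In macrophages P2X7 feeds inflammasome activation, P2Y2 serves chemotaxis towards ATP, and P2Y6 serves phagocytosis. Orphan receptors have no settled endogenous ligand, although several Gpr genes now have one, such as oxysterols for GPR183, medium-chain fatty acids for GPR84 and protons for GPR65.

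Chromatin immunoprecipitation followed by sequencing gave H3K27ac in bone marrow-derived macrophages of IL10-/-RAG2-/- 129S6/SvEvTac mice, in 4 groups of 3 libraries. The late IL-10 group had LPS, bacterial lipopolysaccharide, for 195 min with IL-10, an anti-inflammatory cytokine, added for the final 30 min. The continuous IL-10 group had LPS and IL-10 together for 195 min. The LPS group had LPS alone at 1 ng/mL for 195 min, and the untreated group had neither. All animals lacked Il10 and Rag2, so the macrophages cannot make IL-10 themselves, and such mice lack mature T and B cells. The precursors grew for 5 days in medium with M-CSF. The labels speak of 3 independent macrophage pools, and the continuous IL-10 was at 1 ng/mL, while no label gives the dose of the late IL-10.

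The libraries held between 5149730 and 26922552 reads in the regions, and the replicate 3 library was the deepest of every group. Replicate 3 of the LPS group stood apart. Its correlation with LPS replicates 1 and 2 was 0.749 and 0.769, against 0.815 to 0.922 for the other pairs within a group. At Il6, an LPS-induced cytokine gene, it held 424, against 10200 and 12851 in LPS replicates 1 and 2, and late IL-10 replicate 3 held 534, against 7412 and 9268. Socs3, a target of IL-10 signalling, held 29280, 28807 and 29545 with late IL-10, 26550, 25317 and 26424 with continuous IL-10, 14682, 18663 and 17100 with LPS and 2579, 2812 and 4669 untreated. The counts over all receptor genes are therefore also given with all replicate 3 libraries left out. Macrophage markers were present: all 8 had regions, and their summed signal was 26386 to 35307 with late IL-10, 34280 to 43596 with continuous IL-10, 33301 to 53077 with LPS and 32071 to 42521 untreated. Of 8 T cell markers 5 had a region, and 3 rose and 0 fell with LPS, where 14.2% and 13.3% of all genes tested did. In a fit blocked by replicate number 3 rose and 2 fell, as with all replicate 3 libraries left out. More of all genes were called with LPS under both settings too. Cd4, not called among all 12 libraries (limma adjusted p = 0.0557), held 27.5, 3.36 and 83 with LPS and 406, 242 and 184 untreated, and Cd3d (0.134) held 37.4, 31.9 and 129 with LPS and 119, 124 and 221 untreated. The summed T cell signal was 803 to 1233 with late IL-10, 307 to 551 with continuous IL-10, 667 to 732 with LPS and 440 to 621 untreated. In the same order of groups, the 3 B cell markers with a region summed to 2016 to 3067, 1806 to 2561, 1552 to 2046 and 2509 to 3246, and 4 of 7 neutrophil markers to 1213 to 1779, 1951 to 2317, 1399 to 1867 and 663 to 1620. The 5 dendritic cell markers summed to 3559 to 8346, 2964 to 5128, 4008 to 11005 and 6046 to 8072, and 3 of 5 platelet markers to 573 to 1871, 383 to 539, 844 to 3393 and 475 to 1017. Sums can hide opposite moves. With LPS 1 of the 5 dendritic cell markers rose and 2 fell, and 1 of the 8 macrophage markers rose and 3 fell. Flt3 averaged 7.05 with LPS and 1214 untreated, and Zbtb46 463 and 185. For 4 of 5 microglia markers the ranges were 2177 to 3299, 3125 to 4631, 1897 to 4767 and 3885 to 7829, and for 2 of 4 mast cell markers 46.1 to 52, 27.6 to 41.9, 7.88 to 19.7 and 26 to 68.6. Of the mast cell genes Cpa3 held 47.5, 50.2 and 36.3 with late IL-10, 30.4, 27.9 and 18.7 with continuous IL-10, 3.94, 1.68 and 0.464 with LPS and 67.9, 44.1 and 25.5 untreated. Elane, of the neutrophil genes, held 250, 136 and 598 with late IL-10, 96.1, 348 and 485 with continuous IL-10, 1.97, 1.68 and 75.1 with LPS and 834, 570 and 1053 untreated. In each IL-10 comparison with LPS both were called higher by limma at an adjusted p under 0.05, and each of these calls ended without some single libraries. Kit and Camp went the other way with LPS. Kit, a mast cell gene, held 1.76, 1.79 and 9.74 with late IL-10, 15.7, 11.8 and 7.42 with LPS and 0.707, 1.26 and 0.419 untreated. Camp, a neutrophil gene, held 918, 901 and 964 with late IL-10, 1291, 1447 and 1617 with LPS and 0.707, 1.26 and 112 untreated. With continuous IL-10 Kit held 1.69, 14 and 8.87 and Camp 1646, 1200 and 1234. The neutrophil gene S100a8 held 382, 174 and 217 with late IL-10 and 104, 95.8 and 174 with LPS. Cd3g, Cd8a, Trac, Pax5 and Mpo had no region, and the part of other cells in the results below was not tested. Fewer cells carrying a mark and less of the mark per cell cannot be told apart in such bulk samples.

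RefSeq promoter windows on GRCm38.p6, the mm10 assembly, were matched for 49 of the 59 genes, with 250 bases before and 50 after each start. The 5 windows shown belong to some of the genes described below: Gpr35, Gpr146 and P2ry2 higher with IL-10 under both schedules, and Gpr25 and Gpr84 higher with LPS. Capitals mark, on either strand, matches to TTCNNNGAA (a STAT site, GAS), GAAANNGAAA (an interferon response core), GGGNNNNNCC (an NF-kB-like site) and TGANTCA (AP-1), and overlapping matches are merged.
Gpr35, chr1:92978653-92978952, plus strand: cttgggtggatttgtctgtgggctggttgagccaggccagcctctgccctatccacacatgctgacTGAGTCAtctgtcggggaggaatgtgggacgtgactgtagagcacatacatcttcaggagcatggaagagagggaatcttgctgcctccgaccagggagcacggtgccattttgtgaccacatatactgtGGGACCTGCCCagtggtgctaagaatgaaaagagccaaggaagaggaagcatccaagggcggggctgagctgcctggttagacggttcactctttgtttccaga
Gpr146, chr5:139380389-139380688, plus strand: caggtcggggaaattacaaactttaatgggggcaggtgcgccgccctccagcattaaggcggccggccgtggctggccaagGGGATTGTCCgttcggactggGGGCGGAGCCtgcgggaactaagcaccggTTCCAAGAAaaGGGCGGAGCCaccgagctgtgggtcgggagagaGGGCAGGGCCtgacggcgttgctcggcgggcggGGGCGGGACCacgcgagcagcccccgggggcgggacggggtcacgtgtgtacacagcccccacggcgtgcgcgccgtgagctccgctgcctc
P2ry2, chr7:101012004-101012303, minus strand: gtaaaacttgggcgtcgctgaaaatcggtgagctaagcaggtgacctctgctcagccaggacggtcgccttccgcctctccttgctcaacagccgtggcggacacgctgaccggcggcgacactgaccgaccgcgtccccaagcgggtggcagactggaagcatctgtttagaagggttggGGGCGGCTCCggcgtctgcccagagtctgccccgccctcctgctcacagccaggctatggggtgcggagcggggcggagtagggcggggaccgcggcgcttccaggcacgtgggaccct
Gpr25, chr1:136260877-136261176, minus strand: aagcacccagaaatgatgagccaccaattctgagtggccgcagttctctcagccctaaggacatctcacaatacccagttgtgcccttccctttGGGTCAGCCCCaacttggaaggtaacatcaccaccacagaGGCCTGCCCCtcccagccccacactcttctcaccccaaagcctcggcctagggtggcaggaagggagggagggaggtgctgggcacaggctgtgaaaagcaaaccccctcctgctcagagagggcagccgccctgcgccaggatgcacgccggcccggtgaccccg
Gpr84, chr15:103310389-103310688, minus strand: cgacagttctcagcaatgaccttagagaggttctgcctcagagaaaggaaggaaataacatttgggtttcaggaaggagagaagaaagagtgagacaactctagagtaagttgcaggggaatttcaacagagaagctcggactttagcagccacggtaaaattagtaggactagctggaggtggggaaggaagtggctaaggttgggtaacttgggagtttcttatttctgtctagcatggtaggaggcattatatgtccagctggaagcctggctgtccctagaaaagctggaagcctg
The NF-kB-like letters are loose: they stood in 53.6% of the 69 windows of the receptor genes and in 50.8% of all 32851 windows. GAS letters stood in 4.35% of the receptor windows and 8.3% of all windows, the interferon core in 4.35% and 3.44%, and AP-1 letters in 13% and 7.81%. The Gpr35 window shown has an AP-1 match, the Gpr146 window a GAS match, and the Gpr84 window none of the 4. Both Gpr35 and Gpr146 have other start sites whose windows are not shown. The windows shown for these 2 genes are the ones with most matches, and the window listed before each of them holds none of the 4.

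LPS moved many receptor genes in each direction. Of the 50 receptor genes tested, 10 rose and 12 fell with LPS against untreated cells by limma's moderated test at an adjusted p under 0.05, where over all 13482 genes tested 14.2% rose and 13.3% fell, 27.6% in all. Of their 139 tested regions 22 rose and 29 fell, against 16.5% and 17.9% of all 36621 regions, 34.5% in all and close to the share of the receptor regions, 36.7%. The median log2 change of the receptor genes was -0.49, against -0.11 for all genes. Among the larger rises were those of Gpr25, Gpr55 and P2ry10, and the largest falls were at P2rx6, Gpr146, Gpr160 and Gpr176. Blocking by replicate number gave 12 genes risen and 18 fallen, and 30 and 40 regions, where over all genes 2711 rose and 3159 fell, against 1917 and 1798 without the block. With all replicate 3 libraries left out, 13 receptor genes rose and 16 fell, and of all genes 3049 and 2980 did. The count of risen genes was 6 without LPS replicate 1 and 6 without LPS replicate 2, the count of risen regions 14 without LPS replicate 1, and the count of fallen regions 16 without untreated replicate 1.

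**Figure D1:**
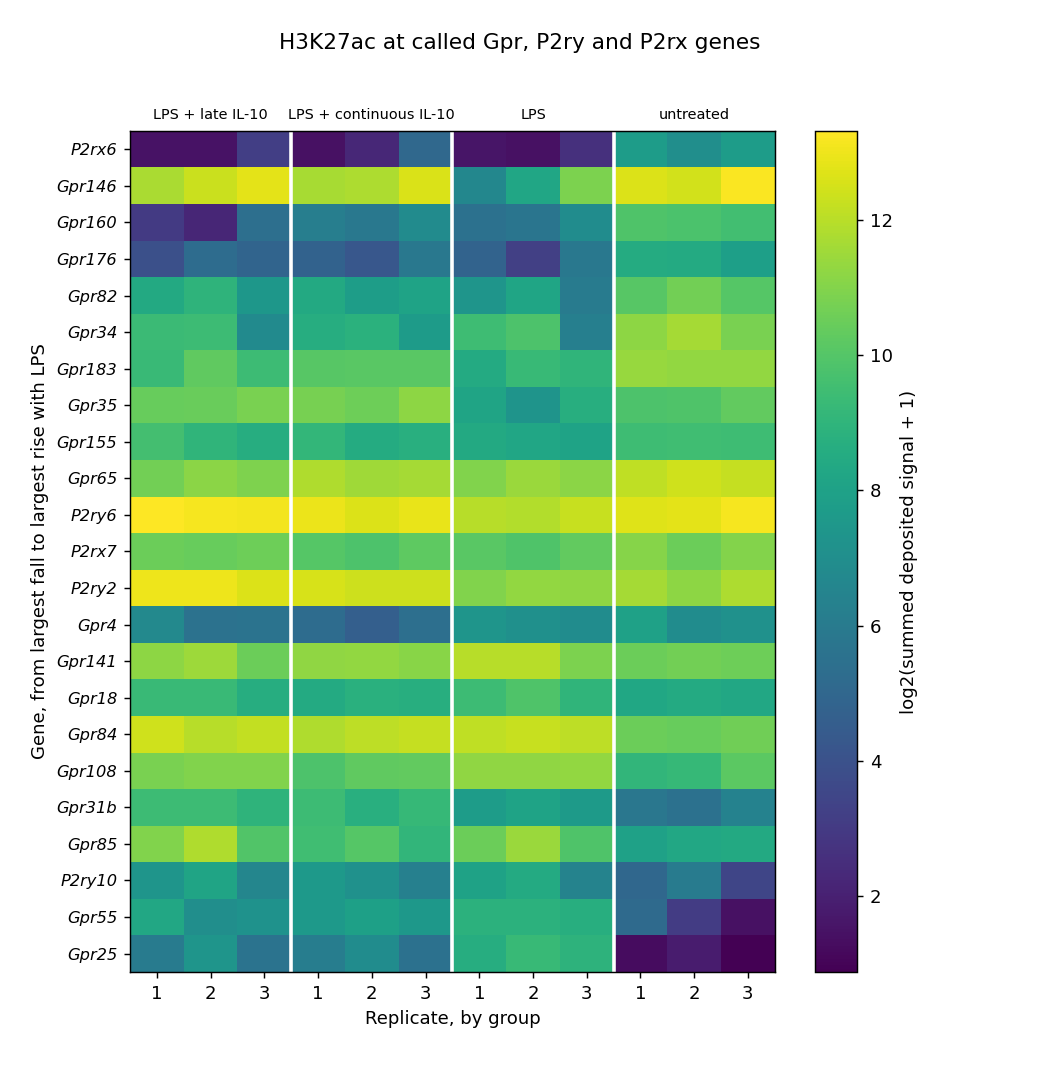
Summed H3K27ac signal, as log2(value + 1), in each of the 12 libraries for receptor genes called in at least 1 comparison; rows run from the largest fall to the largest rise with LPS, and columns are replicates within the late IL-10, continuous IL-10, LPS and untreated groups. Gpr146 and Gpr35 are bright in both IL-10 groups and untreated cells and darker with LPS alone, while Gpr25 is darkest in untreated cells.

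Adding IL-10 raised acetylation at a small set of receptor genes. With continuous IL-10 against LPS, 5 of 50 rose (Gpr35, Gpr146, P2ry2, Gpr183 and P2ry6) and 3 fell (Gpr25, Gpr4 and Gpr108), against 2.59% and 3.17% of all genes, 5.76% together. With late IL-10 against LPS, 5 rose (Gpr146, Gpr35, P2ry2, Gpr31b and P2ry6) and 0 fell, against 3.19% and 0.26% of all genes, 3.45% together. edgeR on the recovered reads also gave 0 fallen genes with late IL-10, and 3 fell at an unadjusted p under 0.05. Both IL-10 comparisons use the same LPS libraries. In regions, 9 of 139 rose and 6 fell with continuous IL-10 (3.28% and 3.24% of all regions, 6.52% together), and 8 rose and 1 fell with late IL-10 (3.14% and 0.396%, 3.53% together).

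These IL-10 counts depended on single libraries and on the pairing by replicate number. With the replicate number as a block, 10 receptor genes fell with continuous IL-10 and 3 with late IL-10, and 17 and 4 regions did. With all replicate 3 libraries left out, 6 rose and 14 fell with continuous IL-10, and 6 rose and 2 fell with late IL-10. Both settings also raised the counts over all genes with LPS, and their counts over all genes with IL-10 are not given here. These numbers therefore do not set the receptor genes apart from all genes. The count of risen genes with continuous IL-10 was 2 without any 1 of LPS replicate 1, LPS replicate 2, continuous replicate 2 or continuous replicate 3, and 3 without continuous replicate 1. That of fallen genes was 0 without LPS replicate 1, LPS replicate 2, continuous replicate 1 or continuous replicate 2, 1 without continuous replicate 3 and 7 without LPS replicate 3. With late IL-10, 3 genes rose without late replicate 2 and 1 fell without late replicate 3.

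Region counts moved likewise. With continuous IL-10, risen regions numbered 4 without LPS replicate 2 and 5 without any 1 continuous library. Fallen regions numbered 0 without LPS replicate 1 or 2, 15 without LPS replicate 3, 2 without continuous replicate 1 or 2 and 3 without continuous replicate 3. With late IL-10, risen regions numbered 5 without LPS replicate 1, LPS replicate 2, late replicate 1 or late replicate 2. Fallen regions numbered 0 without LPS replicate 1 or 2 and 2 without late replicate 3.

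The called regions lay both at and away from start sites. Of 37 tested pairs of a receptor gene and a region holding its start site, 5 rose and 8 fell with LPS, against 10.7% and 9.06% of all 9985 such pairs. Each IL-10 schedule raised 3 and lowered 0 of them, where 1.52% of all pairs rose and 2.18% fell on the continuous schedule, and 1.86% rose and 0.28% fell on the late one. The start-site regions that rose with continuous IL-10 were those of Gpr35, Gpr146 and Gpr183, and with late IL-10 those of Gpr35, Gpr146 and P2ry2. Of 42 pairs with the region outside the gene, 8 rose and 7 fell with LPS (20.5% and 22.6% of all 8820), 4 rose and 1 fell with continuous IL-10 (4.5% and 4.07%), and 2 rose and 1 fell with late IL-10 (3.87% and 0.635%).

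The schedules were also set against each other directly. Between late and continuous IL-10, 0 of 50 receptor genes passed in limma, where 1.88% of all genes were higher and 0.668% lower with late IL-10, 2.55% together, and edgeR also gave 0. At an unadjusted p under 0.05, 6 were higher and 3 lower. In regions it was 0 of 139 (1.86% and 0.852% of all regions, 2.71% together), with 16 higher and 11 lower unadjusted. With the replicate block, 6 genes were higher and 3 lower, and 10 and 9 regions. With all replicate 3 libraries left out, 9 genes were higher and 2 lower. The counts over all genes under these settings are not given here either. Without late replicate 3 alone, 2 genes were higher and 2 lower, and 6 and 3 regions.

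**Figure D2:**
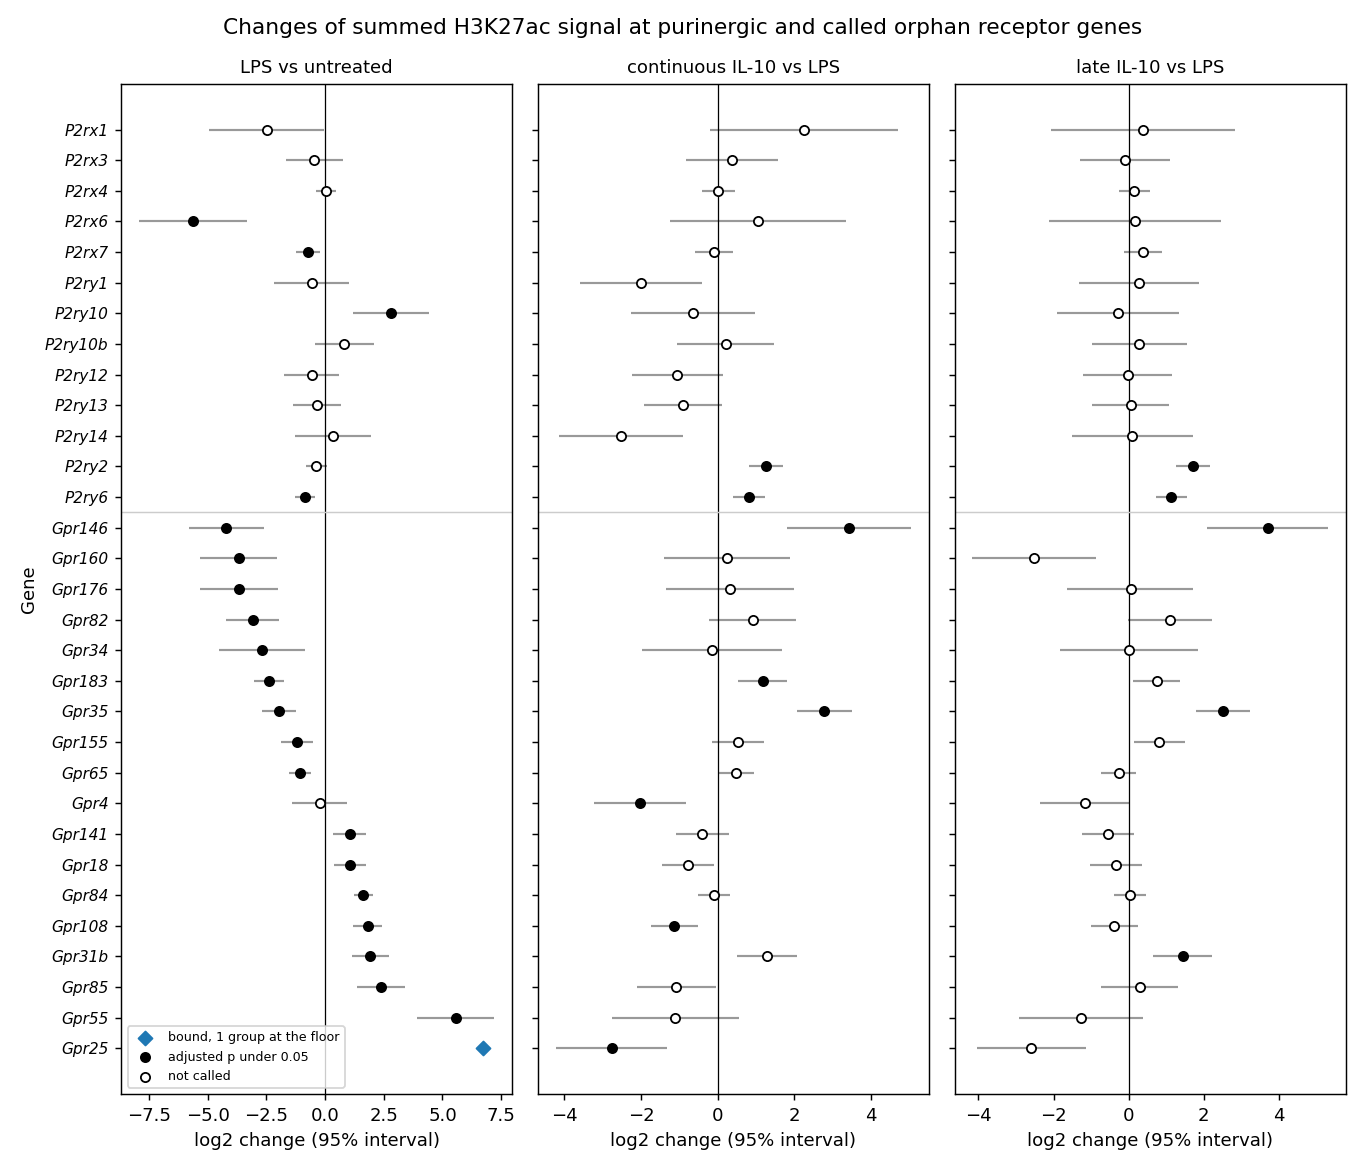
Log2 change of summed signal (horizontal axis, points, with 95% intervals as lines) for every tested P2 receptor gene above the grey line and other called genes below it, in 3 comparisons; filled points passed an adjusted p under 0.05 and the diamond is a lower bound. P2ry2, P2ry6, Gpr146 and Gpr35 lie right of 0 in both IL-10 panels.

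Among the P2X channels, 5 of 7 genes had a region, and P2rx2 and P2rx5 had none. P2rx6, a subunit that forms poor channels by itself, held 1.97, 1.68 and 5.1 in the LPS libraries and 213, 129 and 214 in the untreated ones. The groups did not overlap, and its region was at 1 read in LPS replicates 1 and 2. P2rx6 fell by 5.63 on the log2 scale (SE 1.06, limma adjusted p = 0.00166). It remained low with IL-10, at 1.76, 1.79 and 7.97 in late and 1.69, 3.81 and 32.5 in continuous libraries, and neither comparison with LPS passed. Its region is also assigned to Lrrc74b.

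P2rx7, the ATP-gated channel upstream of interleukin-1 beta release, held 1137, 958 and 1281 with LPS and 2100, 1484 and 2057 untreated. The groups did not overlap and P2rx7 fell by 0.73 (SE 0.23, limma adjusted p = 0.0316). The call ended without LPS replicate 1 (limma adjusted p = 0.0748), LPS replicate 2 (0.133), untreated replicate 1 (0.122) or untreated replicate 3 (0.0732), with median centring (0.0658) and in edgeR (0.0566). With IL-10 it held 1481, 1376 and 1514 on the late schedule and 1049, 930 and 1186 on the continuous one, and neither passed against LPS.

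P2rx4, a slowly desensitising ATP channel of macrophages, was called in none of the 4 comparisons. It averaged 3065 ± 151 with late IL-10, 2797 ± 281 with continuous IL-10, 2762 ± 250 with LPS and 2716 ± 358 untreated (SD, n = 3 each). Its log2 change with LPS was 0.03, with a 95% interval of -0.39 to 0.45, and with late IL-10 against LPS 0.15, with an interval of -0.26 to 0.57. P2rx1 and P2rx3 did not pass as genes. P2rx1 averaged 11.3 ± 16.4 with LPS and 35.2 ± 9.37 untreated, and its log2 change of -2.49 had a limma adjusted p of 0.125, or 0.0448 with the replicate block. P2rx3 averaged 210 ± 149 with LPS and 275 ± 159 untreated, although 2 of its regions fell, 1 by at least 3.82-fold and the other by 3.02 on the log2 scale (SE 0.73, limma adjusted p = 0.00592).

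Of the 3 Gq-coupled P2Y genes with a region, 2 rose with each IL-10 schedule. Over all genes 2.59% rose with continuous and 3.19% with late IL-10. The 2 genes, P2ry2 and P2ry6, are neighbours on chromosome 7 and may not be independent. Most of the P2ry2 signal came from a region upstream of it, on average 6408 of 7622 with late IL-10. P2ry2, the ATP and UTP receptor, held 8187, 8227 and 6452 with late IL-10, 5954, 5292 and 5329 with continuous IL-10, 2023, 2504 and 2427 with LPS, and 3219, 2395 and 3503 untreated. Every IL-10 library lay above every library without IL-10. P2ry2 rose by 1.71 with late IL-10 (SE 0.21, limma adjusted p = 4.72e-04) and by 1.26 with continuous IL-10 (SE 0.21, limma adjusted p = 0.00432), and both held with any 1 library left out. LPS against untreated gave -0.38 (limma adjusted p = 0.207). Counting only regions that overlap the gene, the continuous call was lost (0.136).

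P2ry6, the UDP receptor, lies beside P2ry2 on chromosome 7. It held 10202, 8942 and 8723 with late IL-10, 8009, 6515 and 7607 with continuous IL-10, 3998, 3803 and 4864 with LPS, and 6589, 7086 and 9220 untreated. LPS alone was the lowest group and overlapped none of the others. P2ry6 fell by 0.85 with LPS (SE 0.19, limma adjusted p = 0.00575; 0.0509 with median centring), rose by 1.14 with late IL-10 (SE 0.19, 0.00446) and rose by 0.81 with continuous IL-10 (SE 0.19, 0.0282). The continuous call ended without LPS replicate 1 (0.114), LPS replicate 2 (0.106) or continuous replicate 1 (0.106), 2 (0.0651) or 3 (0.0981), with centring (0.116), in edgeR (0.0885) and with overlapping regions only (0.0749).

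The 4 regions of P2ry6 and P2ry2 lie side by side between chr7:100940324-100967714, in the P2ry6 body, and chr7:101019466-101081408, which begins 7413 bp upstream of P2ry2 and is 61943 bp wide. The upstream region held 6824, 6998 and 5401 with late IL-10, 5180, 4587 and 4660 with continuous IL-10, 1747, 2225 and 1957 with LPS and 2942, 2234 and 3000 untreated. It rose by 1.69 with late IL-10 (SE 0.21, limma adjusted p = 4.71e-04) and by 1.29 with continuous IL-10 (SE 0.21, 0.00314). The region between the genes, 696 bp from P2ry6, held 2682, 2410 and 2262 with late IL-10, 1597, 1534 and 1602 with continuous IL-10, against 608, 526 and 634 with LPS. It showed the largest change of the 4, a rise of 2.06 with late IL-10 (SE 0.26, 5.33e-04) and of 1.42 with continuous IL-10 (SE 0.26, 0.00592). The P2ry2 start-site region averaged 1215 ± 156 with late IL-10 and 341 ± 111 with LPS (SD, n = 3 each) and rose by 1.87 (SE 0.40, limma adjusted p = 0.0175). That call ended without late replicate 1 (0.091) or 2 (0.0723) or LPS replicate 1 (0.0671) or 2 (0.0703).

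**Figure D3:**
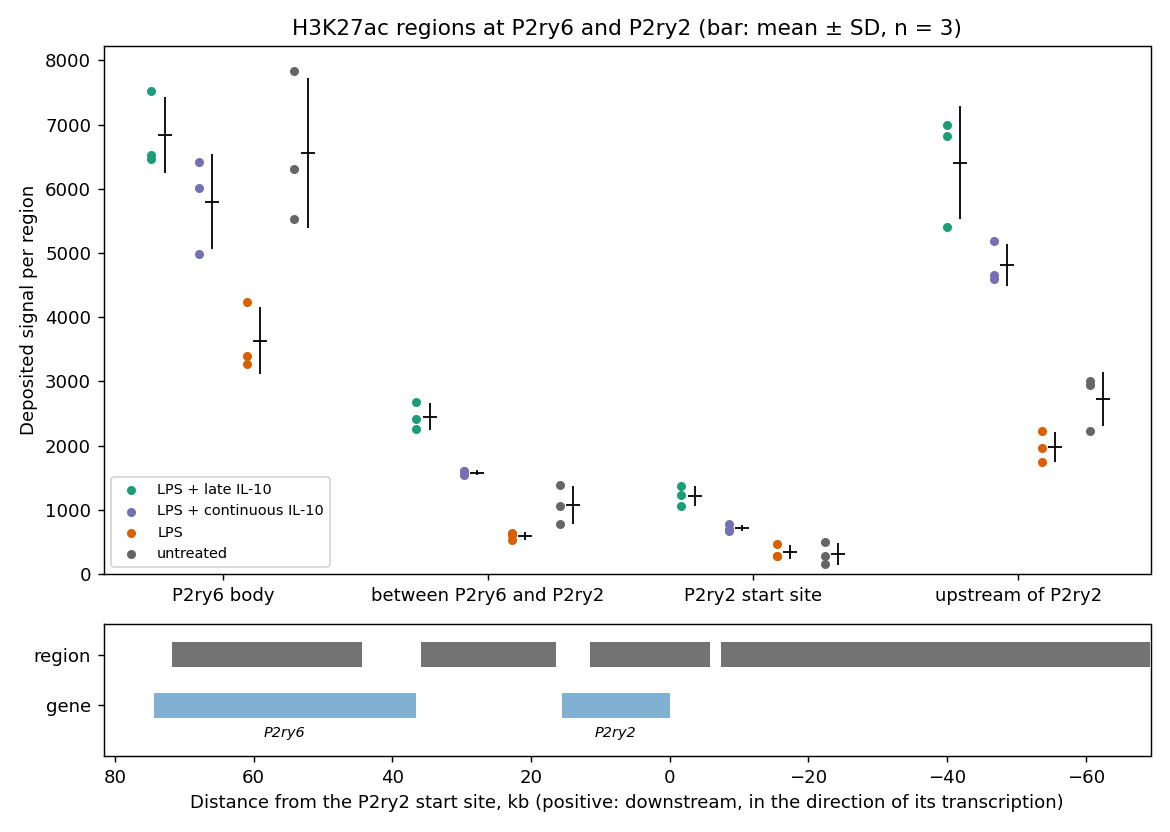
Top, deposited signal (vertical axis) of the 4 regions at P2ry6 and P2ry2, with points for libraries and bars for the mean ± SD of 3; bottom, the regions and gene bodies by distance in kb from the P2ry2 start site. In 3 of the 4 regions, all but the P2ry6 body, every late and continuous IL-10 library lies above every LPS library and every untreated one.

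P2ry1, the third of these genes and an ADP receptor, averaged 135 ± 44.5 with late IL-10, 40.3 ± 44.9 with continuous IL-10 and 112 ± 39.8 with LPS (SD, n = 3 each). Its log2 change with continuous IL-10 against LPS was -2.01 (limma adjusted p = 0.143, 0.038 with the replicate block), and late against continuous IL-10 gave 2.28 (0.118, and 0.0224 with the block).

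The Gi-coupled genes P2ry12 and P2ry13, for ADP, and P2ry14, for UDP-glucose, lie together on chromosome 3 inside the body of Med12l. P2ry12 and P2ry13 share a region, so their sums are not independent. None of the 3 was called as a gene in any comparison among all 12 libraries without the replicate block. With all replicate 3 libraries left out, all 3 fell with continuous IL-10 against LPS and were higher with late than with continuous IL-10, and P2ry14 rose with LPS. That setting was added after seeing the data. Under it 14 of the 50 tested receptor genes fell with continuous IL-10, and 9 were higher with late than with continuous IL-10. Its counts over all genes with IL-10 are not given here, so these calls do not set the 3 genes apart. P2ry14 held 3547, 3404 and 712 with late IL-10, 573, 334 and 198 with continuous IL-10, 3723, 3438 and 554 with LPS, and 1843, 2064 and 915 untreated. Replicate 3 was the lowest library in each group, and within each replicate number the continuous library was below the LPS and the late one. Continuous IL-10 against LPS gave -2.51 (SE 0.75, limma adjusted p = 0.0695, 1.23e-04 with the replicate block and 0.00536 without LPS replicate 3). Late against continuous IL-10 gave 2.60 (SE 0.75, 0.0815, and 1.86e-04 with the block). Late IL-10 against LPS gave 0.09, with a 95% interval of -1.52 to 1.71.

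P2ry12, a marker of microglia, averaged 1579 ± 770 with late IL-10, 708 ± 164 with continuous IL-10, 1753 ± 1068 with LPS and 2198 ± 580 untreated (SD, n = 3 each). Continuous IL-10 against LPS gave -1.05 (limma adjusted p = 0.345, 0.0251 with the replicate block), and late against continuous gave 1.02 (0.365, and 0.0308 with the block). P2ry13 averaged 353 ± 29.4 with continuous IL-10 and 775 ± 449 with LPS, a log2 change of -0.90 (0.348, 0.0728 with the block, and 0.0029 with all replicate 3 libraries left out). Late against continuous IL-10 gave 0.96 at P2ry13 (0.323, 0.0584 with the block, and 0.00715 with those libraries left out).

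P2ry10 and P2ry10b, neighbours on the X chromosome, encode P2Y-like receptors; human P2RY10 is activated by lysophosphatidylserine. P2ry10 held 262, 355 and 86.3 with LPS and 31.8, 64.3 and 10 untreated. The groups did not overlap, and P2ry10 rose by 2.81 (SE 0.75, limma adjusted p = 0.0131). The call ended without LPS replicate 1 (0.0542) or 2 (0.0702). A region inside the gene held 61, 72.3 and 29.7 with LPS and was at 1 read in each untreated library, at least 22.8-fold higher. P2ry10b averaged 973 ± 615 with LPS and 483 ± 191 untreated (SD, n = 3 each), a log2 change of 0.82 (0.342, and 0.021 with the replicate block). With IL-10 neither gene differed from LPS beyond the test.

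All 4 proton-sensing genes had a region. Gpr65, which raises cyclic AMP in acid surroundings, held 1993, 2768 and 2250 with LPS and 4479, 5423 and 4724 untreated. It fell by 1.07 (SE 0.22, limma adjusted p = 0.0026), with no overlap between the groups. Its region 32338 bp downstream averaged 576 ± 99.5 with continuous IL-10, 209 ± 83.2 with LPS and 904 ± 132 untreated (SD, n = 3 each). That region fell by 2.18 with LPS (SE 0.37, 5.59e-04) and rose by 1.53 with continuous IL-10 (SE 0.37, 0.0256). The rise ended without continuous replicate 1 (0.0904), 2 (0.0611) or 3 (0.0762) or LPS replicate 2 (0.108), and in edgeR (0.0611). Late against continuous IL-10 gave -0.76 for the gene (0.0793, and 0.0146 with the replicate block).

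Gpr4 held 37.1, 24.1 and 42.4 with continuous IL-10, against 165, 136 and 121 with LPS. The groups did not overlap and Gpr4 fell by 2.02 (SE 0.55, limma adjusted p = 0.0499). The call ended without continuous replicate 1 (0.104), 2 (0.182) or 3 (0.0906) or LPS replicate 1 (0.178) or 2 (0.162), with centring (0.0683), in edgeR (0.0574), with no filter (0.0525) and with overlapping regions only (0.06). The single Gpr4 region overlaps the gene, so that last setting left the Gpr4 values themselves unchanged. Gpr132, which also binds oxidised fatty acids, averaged 1600 ± 176 with continuous IL-10 and 2605 ± 261 with LPS (SD, n = 3 each), a log2 change of -0.70 (0.101, and 0.0315 with the replicate block).

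Of the 9 lipid and metabolite receptor genes with a region, 4 rose and 3 fell with LPS, where 14.2% and 13.3% of all genes did. The replicate block gave 5 and 4, and leaving out all replicate 3 libraries gave 4 and 3, with more of all genes called too. Gpr84, the receptor for medium-chain fatty acids, held 4400, 4865 and 4364 with LPS and 1473, 1379 and 1554 untreated. The groups lay far apart, and Gpr84 rose by 1.63 (SE 0.20, limma adjusted p = 7.47e-05). IL-10 gave no called change from that level: it averaged 4699 ± 706 with late IL-10 and 4268 ± 540 with continuous IL-10 (SD, n = 3 each), with 95% intervals against LPS of -0.38 to 0.46 and -0.52 to 0.32. Its single region is shared with Copz1 and Zfp385a.

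Gpr55, a lysophosphatidylinositol receptor, held 466, 462 and 403 with LPS and 35.3, 7.56 and 1.67 untreated, and rose by 5.56 (SE 0.77, limma adjusted p = 1.91e-04). A region within its body held 279, 255 and 211 with LPS and 1 read in each untreated library, at least 104-fold higher. Gpr31b held 685, 681 and 500 with late IL-10, 674, 420 and 584 with continuous IL-10, 213, 272 and 198 with LPS and 54.4, 45.4 and 82.1 untreated. Both IL-10 groups lay above LPS, and LPS above untreated. The single Gpr31b region is shared with Tcp10b. Gpr31b, whose human counterpart responds to the lipid 12-HETE, rose by 1.92 with LPS (SE 0.36, limma adjusted p = 0.00166). Late IL-10 raised it by a further 1.44 over LPS (SE 0.36, 0.0454).

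The late call for Gpr31b ended without late replicate 1 (limma adjusted p = 0.209), 2 (0.197) or 3 (0.0607), without LPS replicate 1 (0.14), 2 (0.0836) or 3 (0.0761), and with overlapping regions only (0.0518). Since the single Gpr31b region overlaps the gene, that last setting left the Gpr31b values themselves unchanged. Continuous IL-10 gave 1.28 at Gpr31b (limma adjusted p = 0.0575, 0.013 with the replicate block). Gpr18, a receptor linked to N-arachidonoyl glycine, held 669, 941 and 509 with LPS and 312, 357 and 325 untreated. The groups did not overlap and Gpr18 rose by 1.05 (SE 0.32, limma adjusted p = 0.0255). That call ended without LPS replicate 1 (0.0641) or 2 (0.14) or untreated replicate 1 (0.0808) or 2 (0.0524), and with centring (0.0682). The single Gpr18 region is shared with Ubac2.

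Gpr35, a receptor that kynurenic acid activates, held 1353, 1424 and 1808 with late IL-10, 1727, 1526 and 2333 with continuous IL-10, 285, 160 and 410 with LPS, and 932, 959 and 1297 untreated. LPS was below every other group, and both IL-10 groups lay above untreated. Gpr35 fell by 1.98 with LPS (SE 0.34, limma adjusted p = 8.29e-04), rose by 2.51 with late IL-10 (SE 0.34, 8.13e-04) and rose by 2.78 with continuous IL-10 (SE 0.34, 7.47e-04). All 3 calls held in every alternative run.

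Inside the Gpr35 body, 11475 bp from the nearest start site, the region chr1:92953837-92961644 held 211, 185 and 186 with late IL-10, 300, 141 and 308 with continuous IL-10 and 72.1, 83.2 and 54.4 untreated. With LPS alone it was at 1 read in each library. It was at least 47.2-fold higher with late IL-10 and at least 60.7-fold higher with continuous IL-10 than with LPS, and at least 17-fold lower with LPS than untreated. The start-site region chr1:92969304-92987680, which contains the Gpr35 promoter window shown, held 1125, 1234 and 1599 with late IL-10, 1401, 1383 and 1986 with continuous IL-10, 281, 156 and 409 with LPS and 859, 875 and 1242 untreated.

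Gpr183, the receptor that guides cells along oxysterol gradients, held 1081, 1110 and 1112 with continuous IL-10, 360, 615 and 520 with LPS, and 2679, 2559 and 2542 untreated. Continuous IL-10 lay between the other groups with no overlap. Gpr183 fell by 2.41 with LPS (SE 0.30, limma adjusted p = 8.88e-05) and rose by 1.18 with continuous IL-10 over LPS (SE 0.30, 0.0349). The rise ended without continuous replicate 1 (0.0897), 2 (0.115) or 3 (0.0948) or LPS replicate 1 (0.16) or 2 (0.0604), with centring (0.088) and in edgeR (0.077). Late IL-10 gave 638, 1256 and 680, a change of 0.75 (0.276). Its region is shared with Ubac2.

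Gpr34, a lysophosphatidylserine receptor, held 706, 924 and 74.7 with LPS and 2374, 3153 and 1806 untreated. LPS replicate 3 lay far below its group. Gpr34 fell by 2.70 (SE 0.85, limma adjusted p = 0.0306), or by 1.56 without LPS replicate 3 (0.0725). The call also ended without untreated replicate 1 (0.0834), 2 (0.0979) or 3 (0.0569), with centring (0.0899) and in edgeR (0.131). Its neighbour Gpr82, an orphan receptor in another region over Cask, held 163, 287 and 64.5 with LPS and 1084, 1644 and 1063 untreated, and fell by 3.09 (SE 0.52, 7.87e-04). Gpr119, a lipid amide receptor, averaged 19.6 ± 21.3 with LPS and 67.5 ± 29.1 untreated (SD, n = 3 each; 0.086, and 0.0235 with the replicate block). Gpr174, another lysophosphatidylserine receptor, averaged 424 ± 240 and 242 ± 171 (0.342, and 0.0226 with the block).

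A further group encodes multi-pass proteins named Gpr that are not plasma-membrane receptors of the classical kind. Of its 8 genes with a region, Gpr108 rose with LPS and Gpr155 fell, against 14.2% and 13.3% of all genes. With the replicate block, and also with all replicate 3 libraries left out, 1 rose and 3 fell, with more of all genes called too. Gpr108, which encodes a Golgi membrane protein, held 932, 1246 and 1276 with continuous IL-10, 2448, 2477 and 2561 with LPS, and 529, 590 and 1144 untreated. It rose by 1.81 with LPS (SE 0.29, limma adjusted p = 5.02e-04) and fell by 1.13 with continuous IL-10 (SE 0.29, 0.0358). The fall ended without continuous replicate 1 (0.13), 2 (0.094) or 3 (0.0692) or LPS replicate 1 (0.114) or 2 (0.119). With LPS, the region called was one that also covers C3 and Trip10, at 1796, 1696 and 1345 with LPS and 117, 163 and 158 untreated. The start-site region, also shared with Trip10, was not called. Late against continuous IL-10 gave 0.75 (0.184, and 0.0373 with the replicate block). Gpr155, a lysosomal cholesterol sensor, held 340, 304 and 271 with LPS and 689, 726 and 707 untreated, and fell by 1.22 (SE 0.32, limma adjusted p = 0.0114; 0.0565 with centring).

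Among the 16 other orphan receptor genes tested, 4 rose and 4 fell with LPS, where 14.2% and 13.3% of all genes did. The replicate block gave 4 and 6, and leaving out all replicate 3 libraries gave 5 and 6, with more of all genes called too. Gpr146, an orphan receptor studied in liver cholesterol control, held 3399, 5144 and 7160 with late IL-10, 3320, 3477 and 6235 with continuous IL-10, 100, 306 and 1845 with LPS, and 6572, 5696 and 9748 untreated. The LPS libraries lay below all others. Gpr146 fell by 4.21 with LPS (SE 0.74, limma adjusted p = 0.00108), rose by 3.70 with late IL-10 (SE 0.74, 0.0122) and rose by 3.43 with continuous IL-10 (SE 0.74, 0.0181). The late call ended without late replicate 2 (0.0543), and the continuous call without continuous replicate 2 (0.0549) or 3 (0.0624) or LPS replicate 1 (0.0622) or 2 (0.0783). Both regions are shared with neighbouring genes, and the start-site one, chr5:139360731-139392497, contains the promoter window shown.

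**Figure D4:**
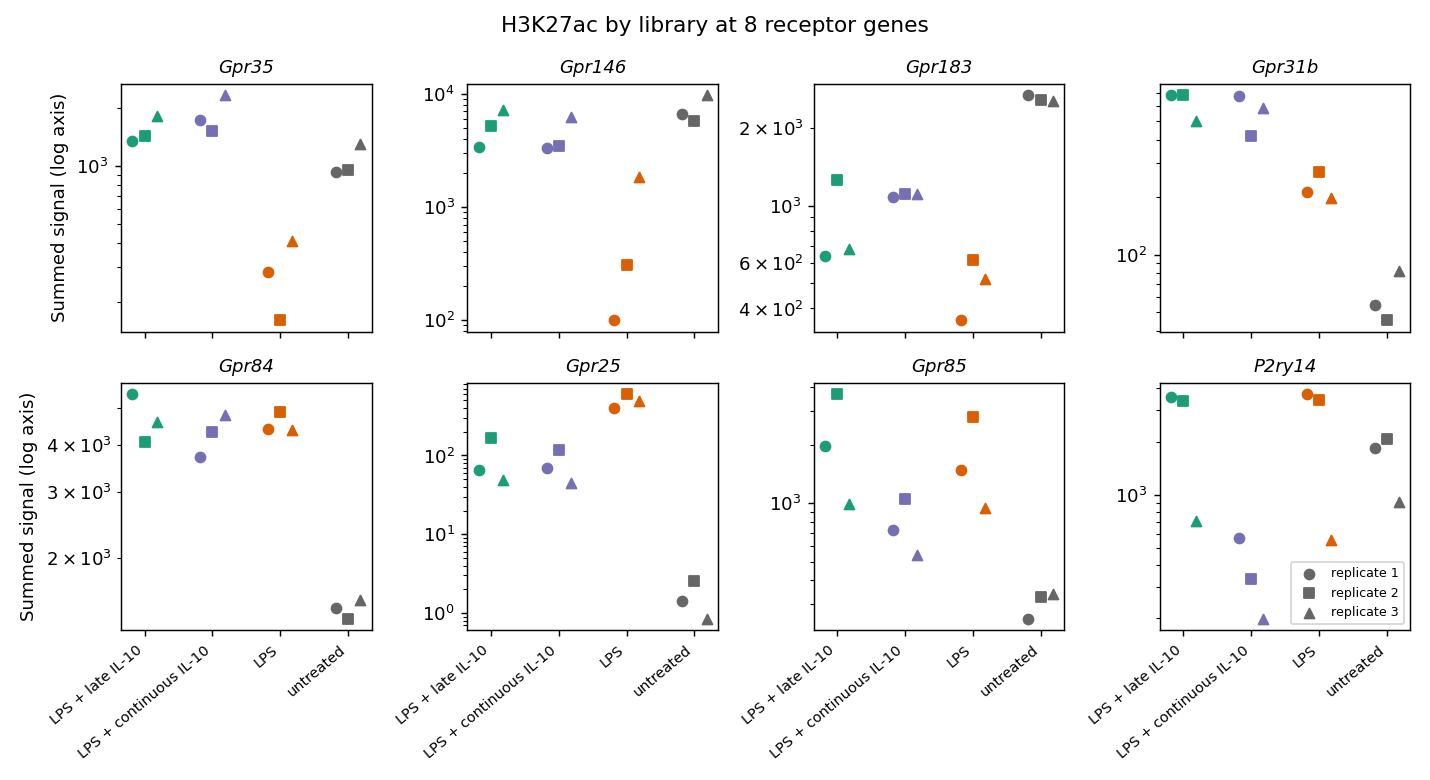
Summed signal on a log axis for 8 receptor genes, by library (marker shape is the replicate number), in the late IL-10, continuous IL-10, LPS and untreated groups from left to right. Gpr35 and Gpr146 are lowest with LPS alone, Gpr84 and Gpr25 lowest untreated, and P2ry14 is lowest with continuous IL-10 within each replicate number.

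Gpr25, an orphan receptor known from T cells, held 65.2, 165 and 48.7 with late IL-10, 69.1, 119 and 44.4 with continuous IL-10, 401, 607 and 487 with LPS, and 1.41, 2.52 and 0.837 untreated. Untreated libraries were at 1 read in both regions, so the LPS rise is a bound of at least 104-fold (limma adjusted p = 9.15e-06). Gpr25 fell by 2.76 with continuous IL-10 (SE 0.67, 0.0296), and with late IL-10 the change was -2.59 (0.0548, and 0.00521 with the replicate block). The continuous call ended without continuous replicate 1 (0.0886), 2 (0.0619) or 3 (0.119) or LPS replicate 1 (0.0922) or 2 (0.141), with centring (0.0544) and with overlapping regions only (0.0692).

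The Gpr25 region chr1:136244936-136251300, 7614 bp downstream of the gene, held 116, 97.5 and 56.6 with LPS and 1 read in every library of the other 3 groups. It was at least 20.3-fold lower with late IL-10, at least 22.8-fold lower with continuous IL-10, and at least 37.7-fold higher with LPS than untreated. Only the LPS group stood above 1 read, so the place of this region among those tested rests on that group. These directions are therefore not independent of the filter. Of the 5 T cell markers with a region, 3 rose with LPS, where 14.2% of all genes did. Cd4 and Cd3d averaged lower with LPS than untreated. Cd3e, 1 of the risen ones, held 59, 70.6 and 12.1 with LPS and 1 read untreated. The part of T cells in the Gpr25 values was not tested.

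Gpr85, an orphan receptor of the brain, held 1484, 2801 and 946 with LPS and 252, 327 and 341 untreated and rose by 2.37 (SE 0.48, limma adjusted p = 0.0025). Continuous IL-10 gave 725, 1058 and 542, a change of -1.08 from LPS (0.238, and 0.0197 with the replicate block). Late against continuous IL-10 gave 1.37 (0.144, and 0.00568 with the block).

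Gpr141, an orphan receptor of myeloid cells, has 12 regions. It held 4081, 4068 and 1877 with LPS and 1448, 1639 and 1522 untreated and rose by 1.04 (SE 0.32, limma adjusted p = 0.0273). The call ended without LPS replicate 1 (0.119) or 2 (0.12) or untreated replicate 1 (0.086), 2 (0.0588) or 3 (0.0625), with centring (0.129), in edgeR (0.0518) and with overlapping regions only (0.176). Its upstream region, 13509 bp away, held 1602, 1497 and 500 with LPS and 124, 90.8 and 97.1 untreated, and rose by 3.35 (SE 0.47, 1.66e-04). A region in the body held 177, 99.1 and 26.4 with LPS and stood at or under 3 reads untreated, at least 42.3-fold higher.

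Gpr160 and Gpr176 fell with LPS. Gpr160 held 45.3, 52.1 and 121 with LPS and 935, 879 and 759 untreated, a fall of 3.68 (SE 0.76, limma adjusted p = 0.00308). With late IL-10 it held 7.04, 3.58 and 42.5, against 72.5, 57.2 and 115 with continuous IL-10, a change of -2.76 (0.0721, and 0.00453 with the replicate block). Late IL-10 against LPS gave -2.51 (0.112, and 0.0101 with the block). Gpr176, an orphan receptor of the circadian clock, held 27.5, 8.4 and 56.6 with LPS and 370, 355 and 236 untreated, a fall of 3.66 (SE 0.78, 0.00349). A Gpr176 region at chr2:118293072-118298774 was at 1 read with LPS and at least 66.1-fold lower than untreated. Gpr15, a homing receptor of T cells, averaged 59 ± 23.8 with continuous IL-10 and 255 ± 182 with LPS (SD, n = 3 each; 0.301, and 0.0157 with the block).

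Gpr142, a tryptophan-sensing receptor of pancreatic islets, was too low on average to be tested as a gene, but both of its regions, downstream of the gene, were tested. In both, all signal above 1 read came from untreated libraries, so their place among the tested regions rests on that group. The direction of their change is therefore not independent of the filter. The sum of Gpr142 was 3.94, 3.36 and 0.927 with LPS and 464, 300 and 344 untreated. The regions were at least 73.9-fold and at least 15.9-fold lower with LPS, and stayed at 1 read in all IL-10 libraries. Gpr89, for a Golgi pH regulator, was not called as a gene, but a region in its body was at least 27.9-fold lower with LPS, at 1 read in each LPS library against 141, 139 and 65.3 untreated. A region upstream of Gpr174 held 89.4, 99.1 and 40.4 with continuous IL-10, against 9.84, 1.68 and 0.464 with LPS and rose by 4.37 (SE 1.00, limma adjusted p = 0.0217). That call ended without continuous replicate 1 (0.065) or 2 (0.0786) or LPS replicate 2 (0.0807), and in edgeR (0.0736). A region inside P2ry14 rose by 4.96 with LPS (SE 1.12, 0.00415), at 214, 151 and 25 against 7.78, 1.26 and 0.419 untreated. It fell by 4.31 with continuous IL-10 (SE 1.12, 0.0377), a call that ended without continuous replicate 2 (0.142) or 3 (0.122) or LPS replicate 1 (0.147) or 2 (0.132) and in edgeR (0.0708). The 9 genes with a region that were not tested include Gpr3, Gpr6, Gpr45, Gpr50, Gpr142, Gpr153, Gpr171 and Gpr179. Gpr50 and Gpr6 were at or under 3 reads per region in every library.

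The genes that supply and remove these receptors' ligands changed mainly with LPS, as all genes did. Of all genes 27.6% were called with LPS, 5.76% with continuous IL-10 and 3.45% with late IL-10. Of 13 tested genes of ATP release and nucleotide breakdown, 3 rose and 4 fell with LPS, where 14.2% and 13.3% of all genes did. The replicate block gave 3 and 8, and leaving out all replicate 3 libraries gave 3 and 7, with more of all genes called too. Ada, adenosine deaminase, held 5.9, 5.04 and 47.8 with LPS and 627, 500 and 576 untreated and fell by 5.48 (SE 1.08, limma adjusted p = 0.00217; 0.121 with overlapping regions only). Enpp1, which hydrolyses ATP, averaged 328 ± 71 with continuous IL-10, 66 ± 15.2 with LPS and 875 ± 199 untreated (SD, n = 3 each). It fell by 3.71 with LPS (SE 0.39, 2.84e-05) and rose by 2.30 with continuous IL-10 (SE 0.39, 0.00475). Gja1, the connexin 43 channel gene, rose by 5.09 (SE 0.96, 0.00164), and Slc17a9, the vesicular nucleotide transporter gene, fell by 2.63 (SE 0.62, 0.00679). Entpd1, CD39, fell by 1.73 (SE 0.50, 0.0198), or by 1.12 without LPS replicate 3, and that call ended without untreated replicate 1 (0.0587) or 2 (0.0689), with centring (0.106) and in edgeR (0.148). Enpp3 rose by 3.53 (SE 0.73, 0.00303). With continuous IL-10, 1 gene of the list rose and 1 fell, where 2.59% and 3.17% of all genes did. The risen gene was Enpp1, and Enpp4, a related pyrophosphatase, fell by 2.33 (SE 0.44, 0.00947). The Enpp4 fall ended without LPS replicate 1 (0.0537) or 2 (0.0546) and with centring (0.067).

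Of 8 inflammasome genes, 4 rose and 0 fell with LPS, where 14.2% and 13.3% of all genes did. The replicate block gave 5 and 2, and leaving out all replicate 3 libraries gave 6 and 1, with more of all genes called too. Il1b rose by 3.00 (SE 0.58, limma adjusted p = 0.00193) and Il18 by 2.52 (SE 0.52, 0.00285). Casp4 rose by 2.50 (SE 0.71, 0.0179) and Casp1 by 1.80 (SE 0.60, 0.039), and these calls ended without LPS replicate 1 (0.0783 and 0.144), LPS replicate 2 (0.0898 and 0.179), untreated replicate 1 (0.06 and 0.116) or untreated replicate 3 (0.0843 and 0.142), and with centring (0.0639 and 0.117). With continuous IL-10, Pycard, the adaptor ASC, rose by 1.59 (SE 0.29, 0.00737) and Il18 fell by 2.13 (SE 0.52, 0.0289), a call that ended without LPS replicate 1 (0.139) or 2 (0.143) or continuous replicate 1 (0.0607), 2 (0.0844) or 3 (0.0987), with centring (0.129) and in edgeR (0.0502). Of 4 genes for the oxysterol ligand of GPR183, 1 rose and 2 fell with LPS, where 14.2% and 13.3% of all genes did. The counts were 1 and 3 with the block and with all replicate 3 libraries left out, with more of all genes called too. Ch25h, which makes the precursor, held 27385, 25032 and 4212 with LPS and 1028, 997 and 67.8 untreated and rose by 5.11 (SE 1.01, 0.00224). Cyp7b1, which completes the ligand, fell by 3.65 (SE 0.68, 0.00157), and Cyp27a1 fell by 1.87 (SE 0.40, 0.00349).

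Of 25 G protein and receptor desensitisation genes, 3 rose and 6 fell with LPS, where 14.2% and 13.3% of all genes did. The replicate block gave 5 and 9, and leaving out all replicate 3 libraries gave 4 and 9, with more of all genes called too. In either IL-10 comparison with LPS limma called 0 of these genes, against 5.76% of all genes with continuous and 3.45% with late IL-10. The block gave 2 higher and 2 lower with continuous IL-10 and 1 higher and 1 lower with late IL-10. Its counts over all genes with IL-10 are not given here. Rgs2, which shortens Gq signals, held 299, 181 and 281 with LPS and 3815, 4339 and 3806 untreated, and fell by 4.00 (SE 0.42, limma adjusted p = 2.99e-05). Gna13 rose by 1.56 (SE 0.30, 0.00179) and Grk5, a receptor kinase, fell by 1.37 (SE 0.21, 3.83e-04). Rgs10 fell by 1.73 (SE 0.40, 0.0059), and Gng12 rose by 1.83 (SE 0.47, 0.0104), a call that ended without LPS replicate 2 (0.0528), with centring (0.0531) and with overlapping regions only (0.0835).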

How the data were processed

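Tools named in the submitters' processing notes are DiffBind, MACS2, Bowtie2 and Trim Galore, with build mm10, and neither versions nor roles are stated. The authors deposited one signal value per library for 40691 consensus regions. In every library 100% of the signal values were whole multiples of 1 factor (tolerance 0.0001 reads), so reads were recovered by dividing by it, with a floor of 1 read. Whether input was subtracted is not stated, and the input library was not analysed here.

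Regions were assigned with the RefSeq annotation of GRCm38.p6 to every gene they overlap, otherwise to the nearest within 100 kb, and summed per gene. For 17 of the 59 receptor genes with a region, every region is also assigned to another gene. Features whose mean log2 value passed the 10th percentile were tested by limma 3.58.1 (R 4.3.3; trend, robust) on log2(signal + 1) in 12 libraries, group as the only term, Benjamini-Hochberg over all features, called at an adjusted p under 0.05. Log2 changes are on the log2(signal + 1) scale and understate changes of low features. Where a group was at or under 3 reads per region in every library, a fold is a bound against 3 reads, which covers counting error only. A p in parentheses after a first limma adjusted p is of the same kind unless edgeR is named.

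Replicate numbers were taken to pair libraries, since the labels name 3 pools and the deviations of 12 same-numbered pairs of groups compared correlated at 0.149 to 0.712 (untreated replicate 1 correlated at 0.0993 with continuous and 0.134 with late replicate 1, groups not compared); 11 of 12 libraries correlated best with their own number. The block is an alternative, besides edgeR 4.0.16 on recovered reads (which called for LPS 2425 genes higher and 1972 lower, for continuous IL-10 328 and 377, for late IL-10 366 and 29, and between schedules 114 and 56), median centring, pseudocount 16, no filter, a 25th percentile filter, overlapping regions only, and each library left out. Leaving out all replicate 3 libraries was added after seeing the data. Whether the pools share animals is not stated, so p-values measure the spread between these libraries.

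The members and gene lists were chosen with earlier results of these data known. Named were up to 15 called genes and 15 called regions per comparison by size, all P2, proton-sensing and lipid receptor genes, and up to 5 called genes per list; Gpr155, Gpr15, Gpr85 with IL-10, Gpr142, Cd3d and Cd4 were named outside that rule, after their values were seen. Results of some receptor genes are not reported here, although the counts include them.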

Additional observations from a re-analysis of the deposited data

Results flagged for a closer look

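Of the listed genes around the receptors (13, 8, 4 and 25 tested), 2 differed between the IL-10 schedules, where 2.55% of all genes did. Enpp4, a nucleotide pyrophosphatase gene, held 1469, 1555 and 562 with late IL-10, against 341, 255 and 244 with continuous IL-10 (1816, 2013 and 747 with LPS alone). Late against continuous IL-10 gave 1.97 on the log2 scale (SE 0.44, limma adjusted p = 0.0387). The call ended without late replicate 1 (0.224) or 2 (0.2) or continuous replicate 1 (0.0691), 2 (0.144) or 3 (0.111), with median centring (0.114) and in edgeR (0.0796). Rgs2 held 136, 100 and 283 with late IL-10 and 673, 314 and 697 with continuous IL-10, a change of -1.74 (SE 0.42, limma adjusted p = 0.0477). That call ended without late replicate 1 (0.237) or 2 (0.219) or continuous replicate 1 (0.136), 2 (0.0786) or 3 (0.158), with centring (0.0752), with no filter (0.0525), with overlapping regions only (0.582) and in edgeR (0.0728). With 3 libraries a group, no search for outlying libraries was made.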

How the results depend on the processing

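Counts of called receptor features moved with the pairing, with replicate 3 and with single libraries. With the replicate block, fallen genes numbered 10 with continuous and 3 with late IL-10, and between late and continuous IL-10 6 genes were higher and 3 lower. Regions numbered 14 risen and 17 fallen with continuous IL-10, 4 fallen with late IL-10, and 10 higher and 9 lower between schedules. Of the called receptor genes, receptor regions and listed genes, the block removed 1 call, the rise of the second Gpr146 region with late IL-10 (limma adjusted p = 0.0526). With all replicate 3 libraries left out, the same counts were 14 and 2 genes fallen, 9 higher and 2 lower between schedules, and in regions 18 and 4 fallen, 12 higher and 3 lower. The matching IL-10 counts over all genes are not given here. Median centring left 3 risen and 1 fallen genes with continuous IL-10, as did overlapping regions only, and 1 region higher with late than continuous IL-10. edgeR gave 19 regions fallen with LPS and 4 risen with continuous IL-10. Pseudocount 16 gave 1 gene and 2 regions fallen with late IL-10 and 1 region higher between schedules, and the 25th percentile filter gave 0 and 1 such regions. Rgs3, higher with LPS, was -0.46 with overlapping regions only (limma adjusted p = 0.565).

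With 1 library left out, risen and fallen genes ranged over 6 to 12 and 9 to 16 with LPS, 2 to 5 and 0 to 7 with continuous IL-10, 3 to 4 and 0 to 1 with late IL-10, and 0 to 2 and 0 to 2 between schedules. Regions ranged over 14 to 30 and 16 to 30 with LPS, 4 to 13 and 0 to 15 with continuous IL-10, 5 to 8 and 0 to 2 with late IL-10, and 0 to 6 and 0 to 3 between schedules. The causes were not tested. The medians that centring subtracted were -0.237 with LPS, -0.113 with continuous IL-10 and 0.122 between schedules for regions, and -0.127 with late IL-10 for genes. Values of 1 read limit what can be said of low regions.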
